A study of Mus musculus with 7 samples.

Results

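Dense core granule genes encode the proteins with which endocrine cells and neurons store and release peptide hormones, and 10 of them were followed through the mouse thyroid and through organoids grown from thyroid follicular cells (TFCs), called TFCOs. The members were Ptprn, Ptprn2, Scg2, Scg3, Scg5, Chga, Chgb, Calca, Calcb and Cpe. They were chosen by asking which are on in the organoid follicular cells and which come from rare tissue cells with 20 or more Calca molecules, so these contrasts are described below without a test. Of the 10 members, 9 had a row among the 30879 genes of the table, and Calcb is not analysed here. All samples came from wild-type C57BL/6 mice, whose age the labels do not give, and no treatment is named beside the culture itself. Primary tissue gave 2 samples, and TFCOs gave 3 samples at late passage and 2 at early passage. The organoids were grown in basement membrane extract with R-spondin, EGF, FGF10, the TGFβ inhibitor A83-01 and forskolin, an activator of cAMP signaling. The labels do not say which organoid sample came from which mouse, so p values measure the spread between these samples.

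Single live cells were placed in 384-well plates by flow cytometry and sequenced by the SORT-seq method, in which every captured mRNA molecule carries a unique molecular identifier (UMI). Cells with at least 1000 UMIs were kept, which left 305 and 273 tissue cells and 235 to 360 cells per TFCO sample. Kept cells of the tissue samples summed to 1360770 and 1533132 UMIs, and those of the TFCO samples to between 1962236 and 4690869. Of 384 well barcodes, 305 were found on all 7 plates, since a plate carries a fixed set of them. Of 16 TFC markers, 13 to 15 were seen in at least 10% of the cells of each TFCO sample, and so were 3 to 4 of 10 endothelial, 2 to 4 of 10 mural, 1 to 2 of 10 stromal and 0 to 1 of 10 immune markers. Summed over its list, the level of the endothelial markers was 1.35 to 2.41 per 10000 in TFCOs against 72.1 and 77.7 in tissue, and that of the mural markers 0.481 to 1.46 against 14.7 and 15.9. A level is the mean over cells of the UMIs per 10000 UMIs of the cell. All intervals are exact 95% Clopper-Pearson intervals for shares or exact Poisson intervals for summed UMIs, and they cover counting error only. For a share of 0 cells, the limit given is the share that 3 cells would make, and it bounds cells with a UMI, not cells that express the gene.

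A dense core granule buds from the trans-Golgi network, is filled with prohormones and granins, and matures while convertases and carboxypeptidases cut the prohormone. In the thyroid gland the cells known for it are the parafollicular C cells, which store calcitonin. Follicular cells instead secrete thyroglobulin into the follicle lumen and are not known as granule-storing cells. Of the 9 genes measured, Ptprn and Scg5 were found in most TFCO cells. Calca, Scg2 and Chgb were nearly absent from TFCOs, and most of their tissue UMIs lay in 5 cells. Chga lay mostly in 4 other tissue cells, Cpe mainly in mural-like cells, Ptprn2 was spread over all classes, and Scg3 was low outside the Calca-high cells of tissue sample 1.

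Ptprn encodes IA-2, a receptor-type phosphatase without enzyme activity that spans the granule membrane (minus strand of chr1:75247027-75264502, GRCm38, like all positions here). The late TFCO samples had 6.83, 32.3 and 20.5 Ptprn UMIs per 10000, and the early samples had 27.9 and 13.4. In tissue it was 0.0913 and 0.0565 over all cells. Every TFCO sample therefore lay above both tissue samples, and late sample 2 was 4.73 times as high as late sample 1. At least 1 Ptprn UMI was found in 69.7% (64.2 to 74.8), 99.7% (98.5 to 100.0) and 98.8% (96.4 to 99.7) of late cells and in 98.3% (95.7 to 99.5) and 92.7% (89.2 to 95.3) of early cells. The cells were not alike: the quartiles of late sample 3 were 5.53 and 25.0 per 10000 and its highest cell reached 204.

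The tissue cells to which TFCOs are best compared are the 105 TFC-like cells, a cluster led by follicular genes such as Tg, Iyd and Foxe1, from which the Calca-high and Pth-high cells described below had been taken out. Among them 1 cell carried 1 Ptprn UMI, which is 0 of 55 cells in tissue sample 1 (a share of up to 5.45% is allowed by a count of 0) and 1 of 50 cells in tissue sample 2 (2.00%, 0.0506 to 10.6). These cells had a median of 2053 UMIs, fewer than the TFCO cells. Thinned to 1000 UMIs per cell, TFCO cells still held a Ptprn UMI in 37.5 to 89.2% of cells per sample, while the TFC-like cells held none. On the log2(value + 1) scale, the TFCO samples were higher than the tissue TFC-like cells by 4.15 ± 0.66 (SE, 5 against 2 samples), or 17.8-fold on that scale. With a pseudocount of 0.1 the log2 difference was 6.84, since the tissue value is close to 0. Ptprn shares 189 exon bases with the antisense gene Gm28294, and whether the authors counted reads by strand is not given in the sources used here.

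Scg5 encodes 7B2, the chaperone of the convertase PC2 (chr2:113776362-113829121, minus strand). Late TFCOs had 14.04, 8.63 and 22.0 Scg5 UMIs per 10000 and early TFCOs had 6.98 and 12.3, against 0.869 and 0.684 over all tissue cells. All TFCO samples again lay above the tissue samples. A Scg5 UMI was found in 87.2 to 98.6% of cells per TFCO sample (48.1 to 80.6% after thinning). Unlike those of Ptprn, its UMIs were also found in more than a single tissue TFC-like cell, at 2.16 and 1.40 per 10000 and in 19 of 55 and 14 of 50 cells. Of all cells of tissue samples 1 and 2 outside the Calca-high and Pth-high cells described below, 20.4 and 17.8% had a Scg5 UMI. How much of the Scg5 in tissue TFC-like cells is free RNA was not tested. Of the summed UMIs, Scg5 made up 2.16 per 10000 (1.66 to 2.78) in tissue TFC-like cells and 0.494 (0.384 to 0.627) in endothelial-like cells, which were deeper. TFCOs were higher than tissue TFC-like cells by 2.17 ± 0.47 (SE) on the log2(value + 1) scale, which is 4.501-fold.

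Of the 9 members, 5 passed the filter on low values in this comparison. The TFCO values lay wholly apart from those of the tissue TFC-like cells for 51.4% of the 4312 genes tested, above them for 40.2%, Ptprn and Scg5 among these, and below them for 11.2%. Ptprn passed the filter through the TFCOs alone. Calca and Chga passed through the tissue alone and lay below, and Ptprn2 overlapped. At an adjusted p under 0.05, 30.4% of all genes differed, 23.4% higher and 6.96% lower, and the median gene was higher by 0.22 (log2). With each sample centred on its median gene, 426 genes passed as higher and 474 as lower, in place of 1011 and 300, and the differences were 3.96 for Ptprn and 1.98 for Scg5. These shares are given as a background, since the members were picked from this contrast.

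**Figure D1:**
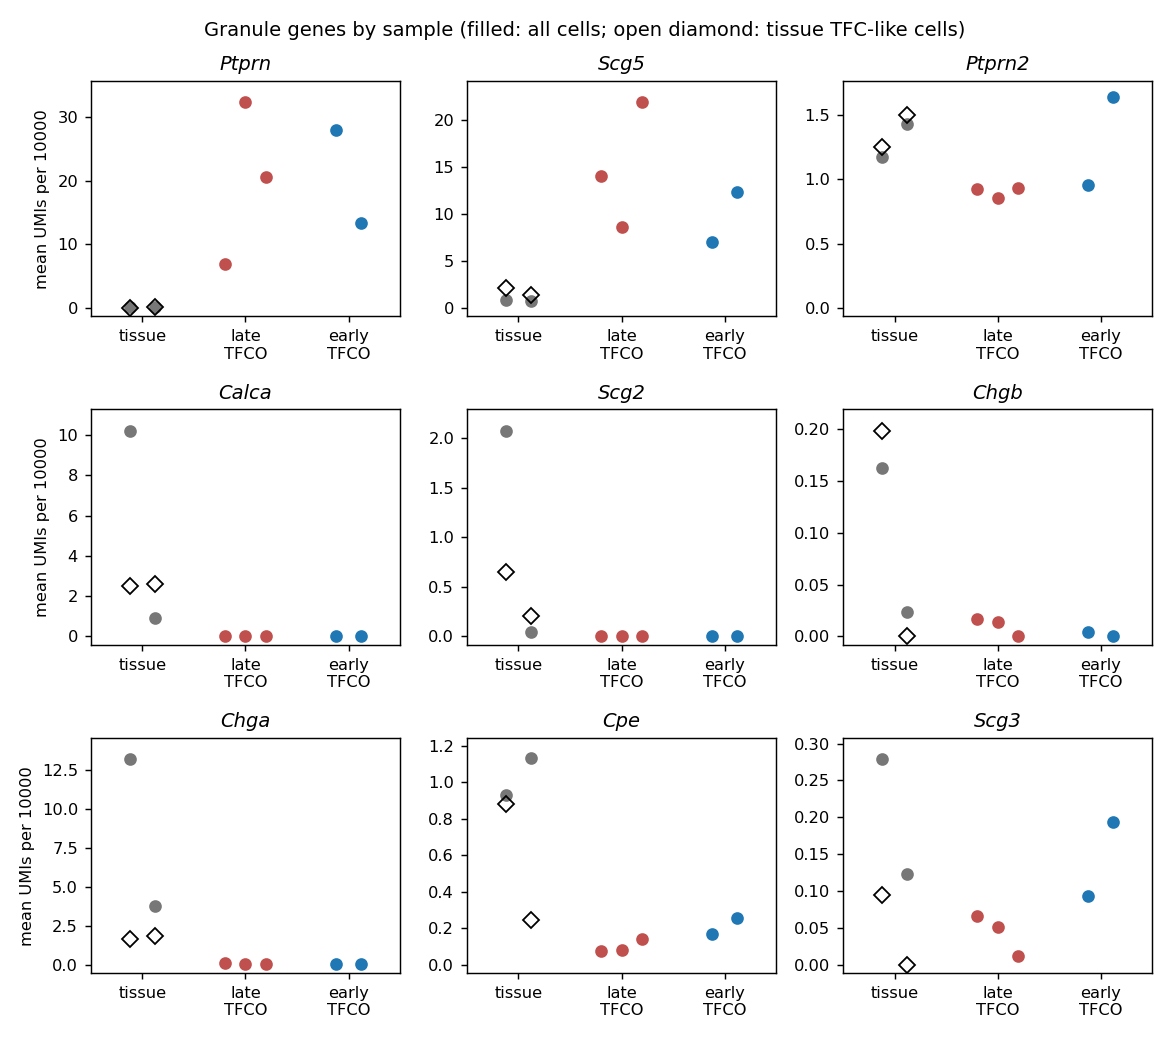
Mean UMIs per 10000 (linear axis, a separate scale per gene) of 9 granule genes in each tissue, late TFCO and early TFCO sample. Filled circles are all kept cells of a sample and open diamonds the tissue TFC-like cells; Ptprn and Scg5 are high in all 5 TFCO samples, while Calca, Scg2 and Chga lie near 0 there.

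Most TFCO cells carried both Ptprn and Scg5. Of the TFCO cells, 68.1 to 98.3% per sample held UMIs of both genes, and 0 to 2.93% held neither. Their amounts were only weakly related from cell to cell: the Pearson correlation of the log values within a sample was 0.01 to 0.18 (235 to 360 cells that share a library). Across samples they ran in another order. Late sample 2 and early sample 1 had the highest Ptprn levels and the lowest Scg5 levels of the 5, and these samples also had the largest shares of cycling cells, 20.6 and 27.2% against 4.56 to 9.50%. They were also the deepest, with medians of 12380.5 and 11059 UMIs per cell against 5011 to 8954, and the cycling call rests on detected genes and was not matched for depth. The part of cycling or depth in this order was not tested.

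**Figure D2:**
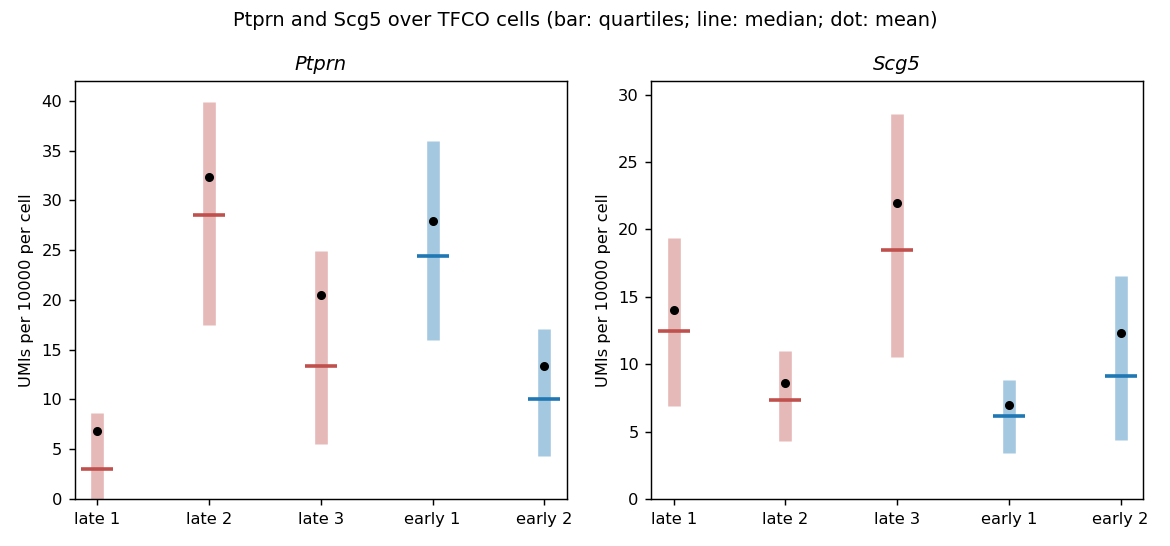
UMIs per 10000 per cell of Ptprn and Scg5 in the 5 TFCO samples. Bars span the quartiles over cells, lines are medians and dots means; Ptprn is highest in late 2 and early 1, where Scg5 is lowest.

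Over the 1457 TFCO cells, with log values centred in each sample, and the 4664 genes compared, the genes with the pattern most like Ptprn included Sorcs1 (Pearson r of log values 0.33) and Cpa4 (0.32), and the top 1% of genes lay above 0.15. Sorcs1 encodes a sorting receptor and Cpa4 a carboxypeptidase. The genes most like Scg5 were Cst3 (0.43), Ctsb (0.41) and Sod3 (0.41), which encode the protease inhibitor cystatin C, the lysosomal protease cathepsin B and an extracellular superoxide dismutase. For Scg5 the top 1% lay above 0.22 and its correlation with the depth of the cell was 0.24, against 0.04 for Ptprn. The part of depth in the likeness of these genes to Scg5 was not tested. These values describe cells of 5 libraries.

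Ptprn2 encodes phogrin, the paralog of IA-2 (chr12:116485720-117276849, plus strand). Late TFCOs had 0.925, 0.859 and 0.937 Ptprn2 UMIs per 10000, early TFCOs had 0.957 and 1.64, and tissue had 1.18 and 1.43. The late samples and early sample 1 lay close together, early and tissue samples overlapped, and early sample 2 stood above the other TFCO samples. TFC-like tissue cells had 1.25 and 1.499, so TFCOs differed from them by -0.19 ± 0.20 (SE, log2). Within tissue it made up 1.52 per 10000 of the UMIs of endothelial-like cells (1.32 to 1.74), 1.24 of TFC-like cells (0.865 to 1.73), 1.16 of the Calca-high cells (0.862 to 1.52) and 0.723 of immune-like cells (0.484 to 1.04). Ptprn2 spans 791 kb, against 17.5 kb for Ptprn, and overlaps other annotated genes without shared exon bases. Among these, Gm48119 on the other strand was 1 of the 10 leading genes of an endothelial-like cluster of 127 cells. None of those 10 was a listed endothelial marker, and the cluster was named from the mean level of its markers. At least 10% of its cells had a UMI for 5 of the markers. TFCO cells of different plates with the same well barcode had related Ptprn2 values (correlation 0.058, above the limit of 0.05 that 21.4% of genes passed). For Ptprn and Scg5 this correlation was 0.0086 and 0.033. The part of the overlapping genes and of the well barcode in the Ptprn2 level was not tested.

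No member passed the threshold between late and early passage. The late minus early difference was -0.20 ± 0.48 (SE, log2) for Ptprn, 0.54 ± 0.34 for Scg5 and -0.25 ± 0.14 for Ptprn2, with limma adjusted p values of 0.836, 0.371 and 0.319. The late and early levels of Ptprn (19.9 ± 12.8, SD, n = 3, and 20.6 ± 10.2, n = 2) overlapped, as did those of Scg5 (14.9 ± 6.71 and 9.64 ± 3.76). In this comparison 0.0232% of 4312 genes passed the threshold, that is 1 gene, and 904 (21%) had an unadjusted p under 0.05. Without late sample 1, the difference of Ptprn was 0.39 and without early sample 1 it was 0.30, so its direction rests on these samples. The other members were too low in TFCOs to be compared.

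Cycling TFCO cells carried less Scg5 than the other cells of their own sample. Cycling cells were those with UMIs of at least 4 of 10 cell cycle genes, and 4 samples had 15 or more of them (179 cells in all). Scg5 was 6.39 in cycling and 9.21 in other cells of late sample 2, and 9.10 and 23.3 in late sample 3. In early sample 1 the values were 5.62 and 7.49, and in early sample 2 they were 5.31 and 12.7. It was lower in 4 of 4 samples, by 0.80 ± 0.15 (SE) on the log2(value + 1) scale (limma adjusted p = 0.0113). Among all genes, 4.2% of 4735 passed in either direction, 2.98% as higher and 1.22% as lower, and 12% were lower in all 4 samples. Over the alternatives the adjusted p of Scg5 was 0.00294 to 0.0998, and it missed the threshold only without late sample 3 (log2 -0.65, adjusted p = 0.0998).

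Ptprn pointed the same way and missed the threshold. It was 28.8 in cycling and 33.2 in other cells of late sample 2, 12.7 and 21.4 in late sample 3, 25.3 and 28.9 in early sample 1, and 7.50 and 13.8 in early sample 2. Cycling cells were lower in 4 of 4 samples, by 0.47 ± 0.12 (SE, log2), with a limma adjusted p of 0.0517 and a range of 0.0350 to 0.243 over the alternatives. Ptprn2 differed by 0.01 ± 0.10 (adjusted p = 0.956), higher in 2 and lower in 2 samples. Cycling cells were deeper than the others in all 4 samples (medians of 12827 to 19230.5 against 4569 to 11671.5 UMIs). Thinned to 1000 UMIs per cell, the difference was -0.99 for Scg5 (adjusted p = 0.00326) and -0.59 for Ptprn (adjusted p = 0.0350).

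**Figure D3:**
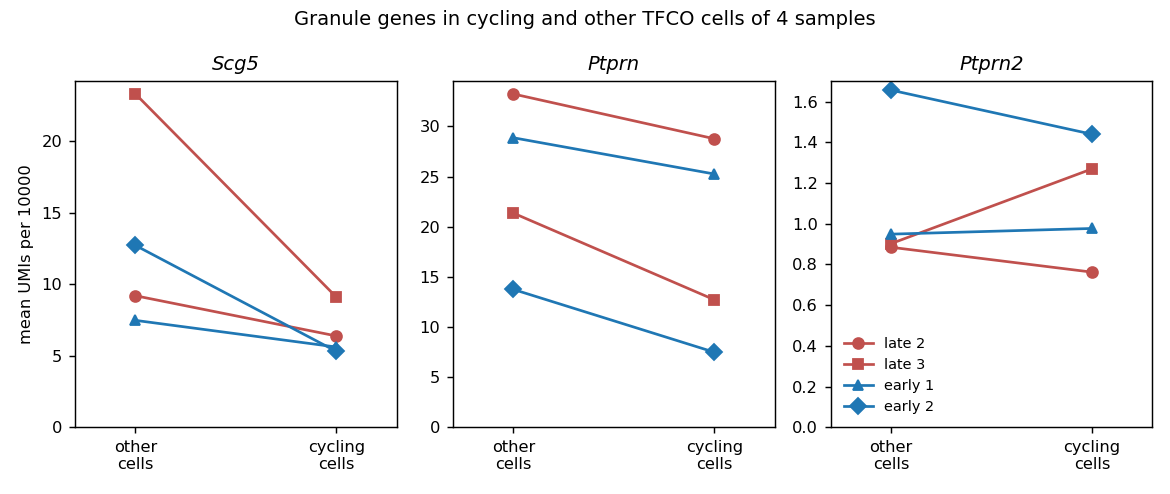
Mean UMIs per 10000 of Scg5, Ptprn and Ptprn2 in cycling and other TFCO cells, with 1 line per sample for the 4 samples that had at least 15 cycling cells. Scg5 and Ptprn fall along all 4 lines, and Ptprn2 rises along 2 and falls along 2.

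Calca, Scg2 and Chgb had the opposite distribution. Calca encodes calcitonin and its splice form CGRP, and Scg2 and Chgb encode secretogranin II and chromogranin B, acidic granins of the granule core. They lie at chr7:114631478-114636357 (minus strand), chr1:79434669-79440120 (minus) and chr2:132781278-132795079 (plus). In TFCOs, Calca was found as 1 UMI in 1 of 1457 cells, Scg2 as 5 UMIs in 4 cells and Chgb as 10 UMIs in 10 cells. Late samples 1 and 3 and both early samples held no Calca UMI, which allows a share of cells with a UMI of up to 0.977, 1.24, 1.28 and 0.958%. In tissue, Calca was at 10.2 and 0.918 per 10000, Scg2 at 2.07 and 0.0392 and Chgb at 0.163 and 0.0235. Tissue sample 1 was higher for all 3 genes.

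Of the 578 tissue cells, 5 had 20 or more Calca UMIs, 3 in tissue sample 1 and 2 in tissue sample 2. They held 91.8% of the Calca UMIs of the tissue, 92.9% of Scg2 (355 of 382 UMIs), 76.7% of Chgb (23 of 30) and 68.2% of the few Ptprn UMIs (15 of 22). Their part was smaller for Scg3 (34.9%), Scg5 (27.4%), Ptprn2 (13.7%) and Cpe (12.5%), and it was 1.34% for Chga. Some of these shares moved with the sample. They were 2.30 and 23.9% for Ptprn2 in tissue samples 1 and 2, with 47 of its 51 UMIs in the deep wells of tissue sample 2 described below, 40.4 and 18.8% for Scg3 and 20.8 and 34.8% for Scg5. Chgb rested mostly on tissue sample 1: in tissue sample 2 these cells held 25.0% of 4 UMIs.

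**Figure D4:**
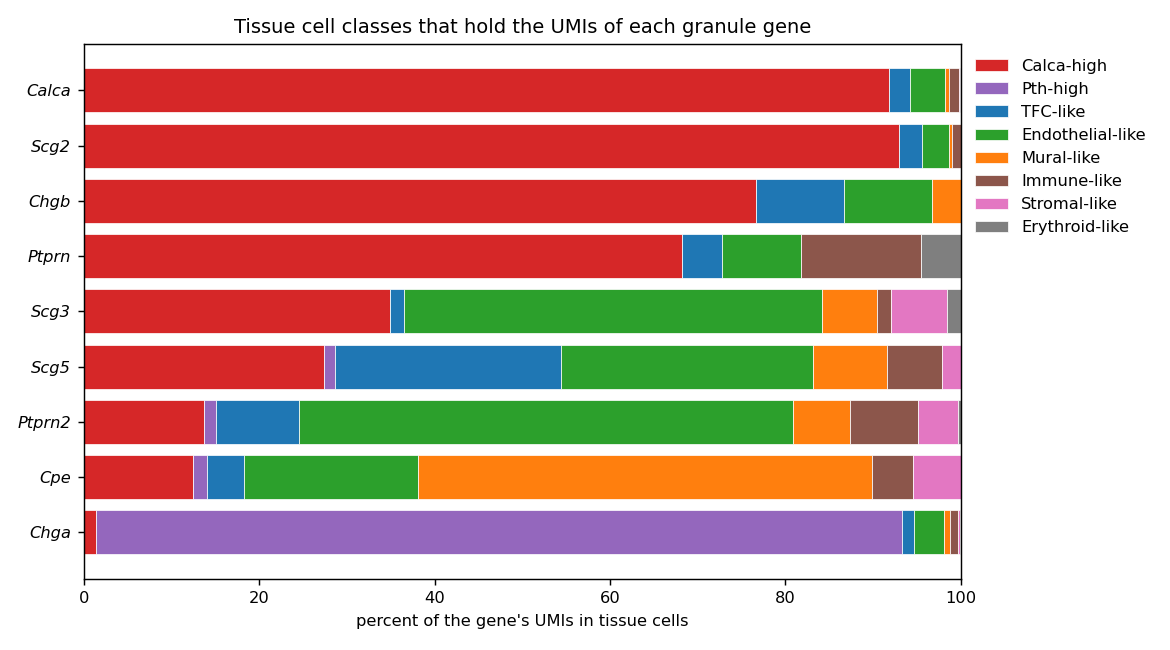
Percent of the UMIs of each granule gene in tissue that lay in each cell class, both tissue samples summed (578 cells). Calca-high cells (5 cells) hold most of Calca, Scg2, Chgb and Ptprn, Pth-high cells (4 cells) hold 91.9% of Chga, and mural-like cells hold 51.8% of Cpe.

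The 5 cells were not alike. The cell with most Calca had 7474 UMIs, of which 1657 were Calca, 275 Scg2, 25 Scg5, 16 Scg3, 15 Chgb, 11 Cpe, 10 Chga and 6 Ptprn, with 12 Tg UMIs. It is the cell in which 8 of the 9 granule genes had at least 6 UMIs. The next had 4051 UMIs with 175 Calca, 67 Scg2, 10 Chga, 7 Chgb and 3 Ptprn. Scaled to depth, Ptprn was at 8.03 and 7.41 per 10000 in these cells, between late sample 1 and the other TFCO samples. The last cell of tissue sample 1 had 8994 UMIs with 81 Calca and 6 Scg2 but no Chga, Chgb or Scg5, and it clustered with the endothelial-like cells. In tissue sample 2 the cells had 151110 and 268847 UMIs, far above the sample's median of 3368. They carried 108 and 31 Calca, 7 and 0 Scg2 and also 3724 and 4066 Tg UMIs. Scaled to depth, this was 7.15 and 1.15 Calca UMIs per 10000, against a mean of 2.61 in the TFC-like cells of that sample, so they reached 20 Calca UMIs through their depth. Whether a well of this depth held more than 1 cell was not tested.

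C cell markers that are no members of the set were counted in the same cells. Of 14 such markers, the cells of tissue sample 1 had UMIs of 10, 7 and 1 and the deep cells of tissue sample 2 of 11 and 10. Summed over the list this was 131 and 158 per 10000 in the cells with most Calca, 10.0 in the cell from the endothelial-like cluster and 3.31 and 2.08 in the deep cells. The 5 cells held 26 of the 37 Gfra4 UMIs of the tissue (a GDNF family receptor of C cells, with 7 more in Pth-high cells) and 20 of 24 Resp18 UMIs. In TFCOs Gfra4 had 16 UMIs in 1457 cells, while Pcsk2, also on the list, was found in 62.7% of cells. The summed level of the list was 2.58 to 5.06 per 10000 in TFCOs and 5.40 and 3.96 in tissue. Just below the limit, 6 tissue cells had 6 to 13 Calca UMIs, and none of them had a Ptprn UMI. In tissue sample 2 there were also 2 cells with 123 and 79 Calca UMIs but under 1000 UMIs in all, so they were not kept.

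Outside these cells, few UMIs of Calca were left. The share of cells with a Calca UMI was 18.1% in TFC-like (11.3 to 26.8), 19.1% in endothelial-like (14.9 to 23.8) and 22.4% in immune-like cells (12.5 to 35.3). Per 10000 summed UMIs, TFC-like cells had more (1.92, 1.44 to 2.5003) than the deeper endothelial-like cells (0.647, 0.519 to 0.796), and 4 of the 6 cells just below the limit were TFC-like, with 10, 7, 13 and 6 Calca UMIs. In tissue sample 1 there were 0.182 Scg2 UMIs per Calca UMI in the Calca-high cells and 0.203 in all other cells, and in tissue sample 2 the ratios were 0.0504 and 0.0455. Calca was also among the 10 leading genes of the TFC-like cluster as first formed, before the Calca-high cells were taken out. How much of the Calca outside the Calca-high cells is free RNA was not tested, and no expression is read from these shares. With the Calca-high and Pth-high cells left out, tissue levels of Calca were 1.26 and 0.898 per 10000 and those of Scg2 0.310 and 0.0379.

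**Figure D5:**
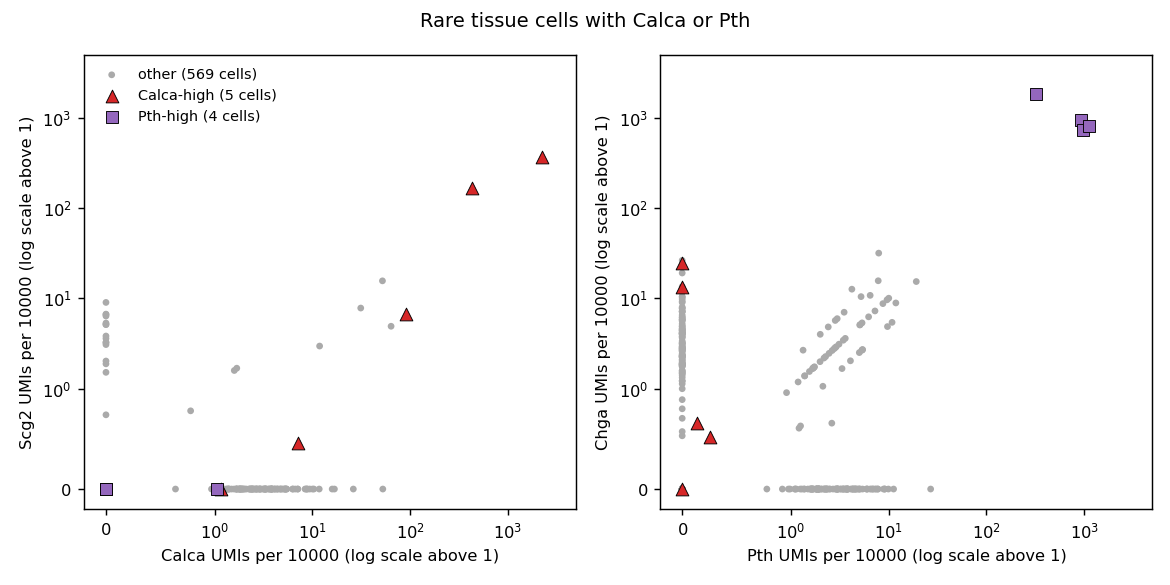
UMIs per 10000 of Scg2 against Calca (left) and of Chga against Pth (right) in each of 578 tissue cells, on axes that are linear below 1 and logarithmic above. Triangles are the 5 Calca-high cells and squares the 4 Pth-high cells; the Pth-high cells hold the highest Chga values, and 2 of the triangles, the deep wells of tissue sample 2, lie at only 7.15 and 1.15 Calca UMIs per 10000, below some other cells.

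Chga encodes chromogranin A, the most widely used marker of endocrine granules, yet most of its UMIs lay apart from Calca. Its tissue level was 13.2 and 3.75 per 10000, and 91.9% of its 3272 UMIs lay in 4 cells with 20 or more UMIs of Pth, the parathyroid hormone gene, 3 in tissue sample 1 and 1 in tissue sample 2. Chga lies on the plus strand of chr12:102554969-102565028. This group was defined after the values had been seen, and 3 of the cells had clustered as endothelial-like and 1 as TFC-like. These cells had 952, 735, 1810 and 810 Chga UMIs per 10000, next to 921, 982, 325 and 1118 of Pth, and they had no UMI of Scg2, Scg3, Chgb or Ptprn. They held 12 of 18 UMIs of Gcm2, a transcription factor of the parathyroid, and 40 Casr UMIs, the calcium-sensing receptor. The tissue total of Casr and the values of Gata3 and Tbx1, also parathyroid markers on the list, are not reported here. The highest Chga counts among the Calca-high cells were 10 to 14 UMIs. Scaled to depth, Chga was at 13.4 and 24.7 per 10000 in the 2 cells with most Calca. It was at 0.662 and 0.521 in the deep wells of tissue sample 2, and the remaining cell had no Chga UMI.

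Outside both rare groups, Chga was at 1.63 and 0.790 per 10000 in the tissue samples. It was found in 27.6% of TFC-like cells (19.3 to 37.2), 25.3% of endothelial-like cells (20.6 to 30.4) and 32.8% of immune-like cells (21.01 to 46.3), and Pth in 20, 26.9 and 32.8% of the same cells. Per 10000 summed UMIs the Chga values were 1.56 (1.13 to 2.10), 0.821 (0.677 to 0.987) and 0.748 (0.505 to 1.07), highest in the TFC-like cells, which were the shallowest of the 3 classes. There were 0.939 and 0.724 Chga UMIs per Pth UMI in the Pth-high cells of the tissue samples and 1.33 and 1.09 in all other cells. The source of Chga outside the Pth-high cells was not tested, and no expression is read from these shares. In TFCOs, Chga was at 0.0284 to 0.102 per 10000, with 95 UMIs in 61 of 1457 cells and a well barcode correlation of 0.066, and Pth had a UMI in 2 cells.

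Cpe encodes carboxypeptidase E, which trims the basic residues left by the convertases. In tissue it was at 0.932 and 1.13 per 10000, and 51.8% of its UMIs lay in the 58 mural-like cells, a cluster led by the pericyte genes Kcnj8, Rgs5 and Pdgfrb. A Cpe UMI was found in 75.9% of these cells (62.8 to 86.1) against 11.6% of endothelial-like (8.27 to 15.6) and 8.57% of TFC-like cells (3.99 to 15.6). Summed over cells it made up 5.97 per 10000 (5.00 to 7.08), 0.371 (0.276 to 0.487) and 0.390 (0.195 to 0.698) of their UMIs. All 5 Calca-high cells had a Cpe UMI. In TFCOs it was at 0.0738 to 0.257, below both tissue samples as a whole. The tissue TFC-like cells had 0.883 and 0.248, and early sample 2 (0.257) lay above the lower of these. In TFCOs Cpe followed the well barcode there (correlation 0.248).

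Scg3 encodes secretogranin III, which binds chromogranin A to the granule membrane (chr9:75643189-75684056, minus strand). Scg3 was at 0.279 and 0.124 per 10000 in tissue, 0.0661, 0.0518 and 0.0115 in late TFCOs and 0.0935 and 0.194 in early TFCOs, so early sample 2 lay between the tissue samples. In the Calca-high cells of tissue sample 1 it made up 9.26 per 10000 of the summed UMIs. In tissue 16 of 63 UMIs came from the cell with most Calca, and 47.6% were spread over the 320 endothelial-like cells (1 of the 3 clusters behind this class was led by unnamed gene models) at 0.218 per 10000 of their UMIs (0.147 to 0.311). No TFCO cell had more than 3 Scg3 UMIs.

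The starts of the genes were compared because the culture medium holds forskolin. cAMP acts on transcription through the CRE, the palindrome TGACGTCA, or its core TGACG, which lies within it. RefSeq promoters (250 bases before to 50 after the start, GRCm38.p6) were given for 8 of the 10 members. The core, searched on both strands, was found for 7 of the 8 members and for 23.0% of 27025 genes, and the palindrome for Scg2 and Chgb and for 2.03% of genes. The sites that lie before the start (Scg5 has 2 more after it) are shown with up to 11 bases on each side, 5′ to 3′ on the strand of the gene, with the motif in capitals, Ptprn and Scg5 first as the genes on in TFCOs.
Ptprn, chr1:75264310-75264336: ttacgccagtaTGACGcaaataggcat
Ptprn, chr1:75264273-75264299: ggtggagatgtCGTCAttgcacgcctg
Scg5, chr2:113829251-113829277: aaggaggtaaaTGACGttcataggggt
Scg2, chr1:79440076-79440105: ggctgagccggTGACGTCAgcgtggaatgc
Chgb, chr2:132781559-132781588: gggctgctccgTGACGTCAgggctgagcga
Calca, chr7:114636407-114636433: aagcacagaggTGACGcaatctgtctg
Chga, chr12:102554886-102554912: gggcggtcctaTGACGtaatttcctgg
Scg3, chr9:75684071-75684097: cgctgggtcgcTGACGccatcctcacg

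Sequences are read along the plus strand of the chromosome for Chga and Chgb and along the minus strand for the others. CGTCA in the second Ptprn sequence is the reverse complement of the core, which there lies on the strand opposite to the gene. They begin 117 and 80 bases before the start for Ptprn, 175 for Scg5, 68 for Scg2, 72 for Chgb, 65 for Calca, 44 for Chga and 30 for Scg3. GENCODE M21 starts Ptprn, Scg2, Chgb and Scg5 further upstream, and the Scg5 site lies before that start as well. In that annotation the Scg2 and Chgb sites fall in an exon, and both Ptprn sites lie within the gene but in no exon. Counted from the RefSeq start, the core stood before genes that were on in TFCOs and before genes that were nearly absent. The palindrome was found for Scg2 and Chgb, which were nearly absent in TFCOs. Ptprn2 had no core. The repressor element RE1 was searched as its parts TTCAGCACC and GGACAGCG, which 0.433 and 1.48% of genes held. Ptprn2 had both side by side after the start, with TTCAGCACC beginning at base 13 and GGACAGCG at base 5. Scg2 had TTCAGCACC, beginning 7 bases before the start. All lay on the strand opposite to the gene, and the spacing of a full RE1 was not searched for. These are matches of letters and do not show that a factor is bound.

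Other genes of the granule pathway were taken from lists. Of 90 genes in 5 lists (prohormone processing, granule cargo, biogenesis and membrane, docking and exocytosis, and regulators), 83 had a row and 18 passed the filter on low values in TFCOs against tissue TFC-like cells. Of these 18, 2 were higher and 2 lower at the threshold, beside 23.4% higher and 6.96% lower of all genes tested. Their median log2 difference was 0.12 beside 0.22 for all genes tested. Cpd, a carboxypeptidase of the trans-Golgi network that cleaves like Cpe, rose from 0.244 and 0.185 per 10000 in tissue to 1.56 to 2.04 in TFCOs (log2 1.17 ± 0.18, SE, limma adjusted p = 0.0013). It passed the filter on low values only through its TFCO level (adjusted p = 0.00726 with a filter of 0.1). Pam, which amidates peptides such as calcitonin and CGRP, fell from 3.12 and 2.61 to between 0.831 and 1.22 (-0.91 ± 0.19, adjusted p = 0.0052). Grp, the gastrin-releasing peptide gene, fell from 1.45 and 0.800 to between 0.0877 and 0.446 (-0.81 ± 0.18, adjusted p = 0.00712), and it passed the filter only through its tissue level (adjusted p = 0.0303 with a filter of 0.1). Arfip1, a trans-Golgi protein, was higher by 0.49 ± 0.16 (adjusted p = 0.0349). It too passed the filter only through the TFCOs, and its call was lost in 5 of 13 alternatives, one of them a filter of 0.1 (adjusted p = 0.0984).

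Pcsk2 encodes PC2, the convertase that 7B2 chaperones, and it did not follow Scg5. It was at 2.07 and 0.895 per 10000 in tissue TFC-like cells and 1.14 to 2.65 in TFCOs (log2 0.15, adjusted p = 0.648). In tissue it made up 2.67 per 10000 of the UMIs of endothelial-like cells (2.40 to 2.95), 3.17 of immune-like cells (2.64 to 3.77) and 1.42 of TFC-like cells (1.01 to 1.93). Pcsk1, which encodes the other convertase of neuroendocrine cells, was at 0.0590 or less in every TFCO sample, and 27 of its 49 tissue UMIs lay in the Calca-high cells. No pathway gene passed the threshold between late and early TFCOs, where limma gave 1 gene in all. Between cycling and other cells, 1 of 20 passed, beside 4.2% of all genes. This was Nucb2, which encodes nesfatin (-0.50 ± 0.10, adjusted p = 0.0202), and it did not pass without late sample 3 (-0.45, adjusted p = 0.132) or without early sample 1 (-0.52, adjusted p = 0.0957).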

How the data were processed

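Tissue and TFCO cells were profiled by SORT-seq (CEL-seq2 chemistry). The submitters' processing notes name Trim Galore 0.4.3, STAR 2.5.3a, Seurat and GRCm38. The authors deposited, for 30879 genes in 2590 cells, UMIs scaled to 10000 per cell, increased by 1 and given as a natural log. Dividing each cell by its smallest value gave whole UMIs for 100% of the non-zero values within 0.01, assuming that this value is 1 UMI. Cells with at least 1000 UMIs were kept (2035). No doublet caller was run.

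Tissue cells were clustered with scanpy 1.11.5 (2000 variable genes, 30 components, 15 neighbours, resolution 1) without genes that follow the well barcode, and clusters were named from marker lists. Cells with 20 or more Calca UMIs, then cells with 20 or more Pth UMIs, were set apart.

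Means per sample were compared as log2(mean UMIs per 10000 + 1) in R 4.3.3 by limma 3.58.1, with a trended prior variance, Benjamini-Hochberg adjustment and a threshold of 0.05. Genes whose group means (tissue TFC-like, late, early) averaged 0.5 or more were tested, and between cycling and other cells those whose sample values did. TFCO is the mean of the late and early groups. Tissue and TFCO samples had 1 estimated weight each (0.483 and 1.34). Cycling cells were compared with the sample as a term. In simulated data 84% of genes changed by 1 (log2) between TFCOs and tissue were recovered, with 14 false calls. Between cycling and other cells it was 98%, with 15 false calls. All simulated samples shared the same spread for a gene, so recovery under the unequal spread of tissue and TFCO samples was not tested. Thinning drew 1000 UMIs per cell.

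The members and gene lists were chosen with earlier results of these data known. Text names all members and pathway genes past the threshold, the 3 genes most like a member that was on, and markers from the lists, of which a few are not reported here. Positions are from GENCODE M21 and promoters from RefSeq. Alternatives are given in the closing section.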

Additional observations from a re-analysis of the deposited data

Results flagged for a closer look

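Ptprn2 in early TFCO sample 2 stood apart from the other TFCO samples. Its level was 1.64 per 10000 and the other 4 lay between 0.859 and 0.957, so the gap took 0.876 of the whole range (Dixon's critical value for 5 samples was passed). Chance would set apart about 1 in 20 groups, and 6 groups of values were looked at. Early sample 2 was also the shallowest TFCO sample, with a median of 5011 UMIs per kept cell, and its Cpe level (0.257) and Scg3 level (0.194) were the highest of the TFCO samples. The part of depth in these values was not tested.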

How the results depend on the processing

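The directions of Ptprn and Scg5 in TFCOs against tissue TFC-like cells were the same in all 13 alternatives (log2 3.90 to 6.84 and 1.76 to 2.63). The number of genes past the threshold was 1311, with 730 for cells of at least 2000 UMIs and 1992 with equal weights. Leaving out 1 sample gave 981 to 1825. Between late and early TFCOs it was 1, with 2 at a filter of 0.1, 405 with a term shared by late sample 2 and early sample 1, and 1 to 367 with 1 sample left out. The highest came without early sample 1, where the lone early sample is assumed to vary like the others. Under that term 2 pathway genes passed, and leaving out 1 sample gave 0 to 1. Between cycling and other cells 199 genes passed, 60 after thinning, and 67 to 218 with 1 sample left out. Nucb2 was lost after thinning and with at least 3 cycle genes, which left 0 pathway genes, and leaving out 1 sample gave 0 to 1.

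The late minus early difference of Ptprn reversed to 0.0033 with that term, 0.39 without late sample 1 and 0.30 without early sample 1, and ranged from -0.70 to 0.39 with 1 sample left out. The cycling difference of Ptprn2 reversed to -0.0212 when centred on the median gene, -0.0663 without late sample 3 and -0.0951 with at least 3 cycle genes, and ranged from -0.0663 to 0.0595 with 1 sample left out. None of these was past the threshold, and the cause was not tested. Ptprn in cycling cells passed at a pseudocount of 0.1, when centred and after thinning.

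The mean share of TFCO cells with a UMI was 91.8% for Ptprn, 94.1% for Scg5 and 50.7% for Ptprn2, and 68.3, 62.1 and 8.69% after thinning, where fewer UMIs are drawn. The share of Calca-high cells was 0.865% of tissue cells and 0.692 to 1.21% over the alternatives. Their part of the UMIs in single tissue samples was 70.0 to 93.5% for Scg2, 25.0 to 84.6% for Chgb and 0.845 to 2.65% for Chga. For Chga it was 0.917% at 40 or more Calca UMIs and 0.616% without the 2 deepest cells. Pth-high cells, an alternative chosen after seeing the data, held 0% of Scg2, Chgb and Ptprn and 91.9% of Chga.

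No paired analysis was possible because no label ties a tissue sample to an organoid sample or a late to an early one by number.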

Other observations

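Without the 2 deepest wells, a choice made after seeing the data, the genes outside the set that most distinguished the other 3 Calca-high cells from all other tissue cells included Cxcl13 (16.1 against 0.0245 per 10000 of summed UMIs), Resp18 (9.75 against 0.0163) and Nnat (24.4 against 0.0489). Each was found in 2 of the 3 cells. With the deepest wells included, the leading genes were Nfrkb, Spata17 and Gm26709. Cxcl13 encodes a chemokine that attracts B cells, and Nnat an imprinted membrane protein of neuroendocrine cells. These cells are too few for a test.

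The Pth-high cells also held Rhcg, an ammonium transporter gene (39 UMIs against 3 in all other tissue cells), and Kl, the gene of the FGF23 co-receptor klotho (23 against 9).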
